A study of Homo sapiens with 6 samples.

Results

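Kinesins are motor proteins that use ATP to move along microtubules or, in some families, to shorten them. The genes described here are the kinesin heavy chains and the kinesin light chains, taken as every protein-coding row whose symbol is KIF followed by a number and an optional letter, KIFC followed by a number, or KLC1 to KLC4. The annotation held 46 such genes and 42 of them had a row among the 21429 of the deposited table; KIF1A, KIF19, KIF26A and KIF2B had none, and KIF28P was left out as a pseudogene. Of the 42, 12 are mitotic kinesins that build the spindle, move chromosomes or complete cell division. The other 30 are mostly motors that carry cargo, serve cilia or shape microtubules; a few of them, such as KIF2A, also act in mitosis.

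RNA was sequenced from U251 cells, an established human glioma line, that stably carry an amyloid precursor protein (APP) transgene with the changes K670N and M671L, switched on by doxycycline at 1 µg/mL from 24 h after electroporation. The 3 siRPL13 libraries came from cells given an siRNA against RPL13, a protein of the large ribosomal subunit, and the 3 siNC libraries from cells given a control siRNA; both groups carried the transgene, received doxycycline and were harvested at 72 h. The labels call the libraries biological replicates without saying how the cultures were separated, so that p-values measure the spread between these libraries. Expression is given as rlog values (the regularized logarithm, a log2 scale), which are scaled for library size but not for gene length, so levels are compared between libraries and not between genes.

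RPL13 itself had 13.03, 13.12 and 14.09 rlog in the libraries labelled siRPL13 replicates 1 to 3, against 14.05, 14.16 and 14.18 in siNC. Knockdown was thus visible in replicates 1 and 2, whereas the library labelled siRPL13 replicate 3 lay within the siNC range, so differences are given with it and without it. The RPL13 difference was -0.72 ± 0.24 (SE, log2; adjusted p 0.589, limma) over all 6 libraries and -1.06 ± 0.06 (adjusted p 8.13e-06) without it. For STMN2, a neuronal protein that destabilizes microtubules, it had 7.71 rlog, while the other 5 libraries had 4.61 to 4.66. All 6 astroglial and glioma markers passed the filter on low values, and GFAP, VIM and NES ranged from 14.11 to 16.33 rlog. For these 3 every siRPL13 library, replicate 3 included, lay below every siNC library (6.9% of all genes), whereas S100B, SLC1A3 and CD44 overlapped. The GFAP groups touched, at 14.983 rlog in siRPL13 replicate 1 and 14.984 in siNC replicate 3. VIM and NES were lower without the library labelled siRPL13 replicate 3 (adjusted p 0.0091 and 0.00227, limma), against 0.589 for both over all 6. GFAP did not pass, with differences of -0.31 ± 0.12 without that library (adjusted p 0.0985, limma) and -0.36 ± 0.13 over all 6 (adjusted p 0.589, limma). Of the endothelial markers PECAM1 had no row, VWF had 4.94 to 5.18 rlog, and CDH5 had 5.84, 5.99 and 6.25 rlog in siRPL13 against 6.43, 6.41 and 6.30 in siNC (adjusted p 0.00344 without replicate 3 and 0.589 with it, limma); their part in the results was not tested. The leukocyte markers PTPRC, CD74 and AIF1 and the epithelial marker EPCAM had no row, CDH1 and KRT19 (epithelial) and RBFOX3 (neuronal) did not pass the filter, and the neuronal marker SYP had 3.60 to 3.82 rlog. Library medians were 9.12 to 9.13 rlog, and read depth is unknown.

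Mitotic kinesin transcripts are made mainly in late S phase and G2, and many of their proteins are degraded as cells leave mitosis. Many genes of this phase carry in their promoters a cell cycle genes homology region (CHR), the site of the MuvB core shared by the DREAM and B-MYB complexes, together with CCAAT boxes, the site of NF-Y. The kinesin-1 motor, by contrast, is a tetramer of KIF5 heavy chains and KLC light chains that is present through the cell cycle and carries vesicles, mitochondria and other cargo outward along microtubules.

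The members were chosen by symbol, without their promoters. In RefSeq windows on GRCh38.p14 running from 250 bases before to 50 after the first start listed for each gene, a CHR (TTTGAA or TTCGAA on either strand) was found in 10 of 12 mitotic kinesins, in 3 of 21 other members with a window and in 11.2% of 10111 windows of protein-coding genes tested here. A CCAAT box (CCAAT on either strand, not overlapping a CHR in these genes) was found in 10 of 12 mitotic kinesins, in 7 of 21 other members and in 36.8% of the windows of protein-coding genes tested. Both were present in 9 of 12, in 3 of 21 and in 4.7%. For the mitotic KIF18A, KIF20A and KIFC1 all 120 bases before the start lay inside the gene's GENCODE 29 span. The same held for KIF21A, KIF25, KIF3C, KIF5C, KIF9, KLC1 and KLC3 among the other members. Such windows may miss the promoter in use, which was not tested. The 3 other members with both were KIF24, KIF4B and KIF5B, and 9 other members (KIF5A, KIF13B, KIF21B, KIF26B, KIF27, KIFC2, KIFC3, KLC2 and KLC4) had no window in the table. The 120 bases before the start are shown for 5 mitotic kinesins, with CHR and CCAAT letters in capitals, because they set genes that fell in the comparison that follows (KIF11, KIF18B, KIF14 and KIF2C) beside one that did not pass (KIF4A).
KIF11, chr10:92593010-92593129, plus strand: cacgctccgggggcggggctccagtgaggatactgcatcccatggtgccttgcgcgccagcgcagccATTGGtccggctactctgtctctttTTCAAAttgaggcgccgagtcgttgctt
KIF18B, chr17:44947774-44947893, minus strand: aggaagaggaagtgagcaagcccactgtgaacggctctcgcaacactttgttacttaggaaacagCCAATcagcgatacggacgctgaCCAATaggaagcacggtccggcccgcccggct
KIF14, chr1:200620752-200620871, minus strand: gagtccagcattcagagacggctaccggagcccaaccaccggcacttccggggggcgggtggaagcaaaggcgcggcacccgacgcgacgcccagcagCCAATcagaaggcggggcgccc
KIF2C, chr1:44739717-44739836, plus strand: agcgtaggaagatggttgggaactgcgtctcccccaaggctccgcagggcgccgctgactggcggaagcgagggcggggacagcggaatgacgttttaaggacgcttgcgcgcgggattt
KIF4A, chrX:70289984-70290103, plus strand: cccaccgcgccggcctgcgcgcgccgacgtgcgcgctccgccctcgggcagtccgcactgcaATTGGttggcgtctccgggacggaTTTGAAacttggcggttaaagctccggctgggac
At most 19 of the bases shown for a gene lie inside its GENCODE 29 span. In KIF11 and KIF4A the CCAAT letters lie upstream of the CHR, whose first base is 28 and 34 bases before the start. In KIF14 and KIF18B the CHR begins at bases 2 and 3 after the start, outside the stretch shown. KIF2C shows neither, and KIF20A, not printed, has a pair of CCAAT boxes and no CHR in its window. A CHR was in the window of 5 of the 7 mitotic kinesins that fell and of 5 of the 5 that did not pass. A match is a description of letters, and no match says only that these letters are not in this window.

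**Figure D1:**
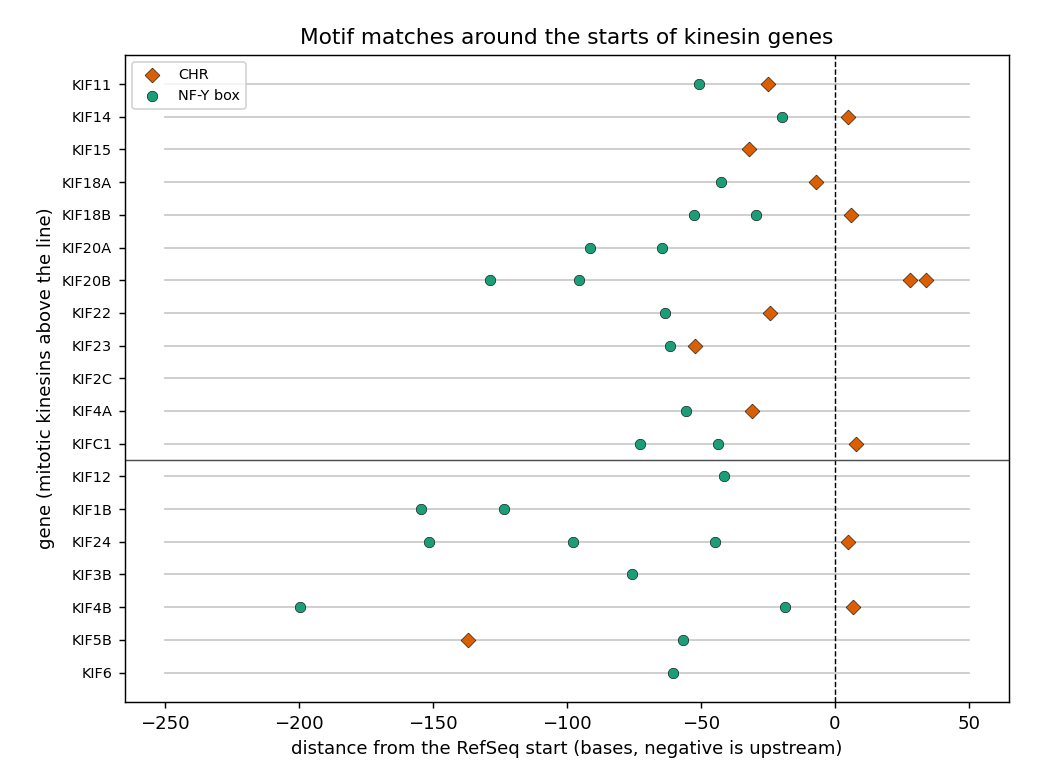
Position of CHR matches (orange diamonds) and CCAAT matches (green circles, NF-Y box) by distance in bases from the RefSeq start, for the 12 mitotic kinesins above the line and, below it, the 7 other members with a match. In 9 of the 12 mitotic kinesins both kinds of match are present; KIF20A has CCAAT matches only, KIF15 a CHR only and KIF2C none.

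The study's comparison asks which transcripts differ after RPL13 knockdown. With all 6 libraries no kinesin passed the test: 40 members had a mean rlog of 3 or more, and 0 of them reached an adjusted p under 0.05 (limma, Benjamini-Hochberg over 15327 genes), as did 0% of all genes. At an unadjusted p under 0.05 there were 5 of 40, against 8.32% of all genes tested. The differences of the mitotic kinesins lay mostly on one side of 0: 11 of 12 were negative, with a median of -0.14 (log2), against 9 of 28 other members with a median of 0.06 and a median of 0.00 over all genes. Without the library labelled siRPL13 replicate 3, 7 of the 12 mitotic kinesins were lower and 0 higher at an adjusted p under 0.05 (limma), where 10.7% of all genes were lower and 8.42% higher. Of 28 other members 5 were higher and 1 lower. At an unadjusted p under 0.05 there were 8 mitotic and 13 other members, against 33.4% of all genes. The median difference was -0.25 for the mitotic kinesins, 0.07 for the other members and 0.00 for all genes. Replicates 1 and 2 of siRPL13 both lay below all siNC libraries for 7 of 12 mitotic kinesins and 5 of 28 other tested members (26.6% of all genes), and above them for 0 and 10 (24.7%). "Fell" and "rose" refer to this comparison of 2 siRPL13 with 3 siNC libraries. When siRPL13 replicate 1 was left out as well, the median difference was -0.18 for the mitotic kinesins and 0.05 for the other members. Leaving out siRPL13 replicate 2 instead gave -0.31 and 0.07. Only 1 siRPL13 library was then left, and fewer members and fewer of all genes passed in either case. Every kinesin call of this comparison depended on siRPL13 replicate 1, and some depended on replicate 2 as well. In these bulk samples fewer cells in G2 or mitosis and less transcript per cell cannot be told apart.

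**Figure D2:**
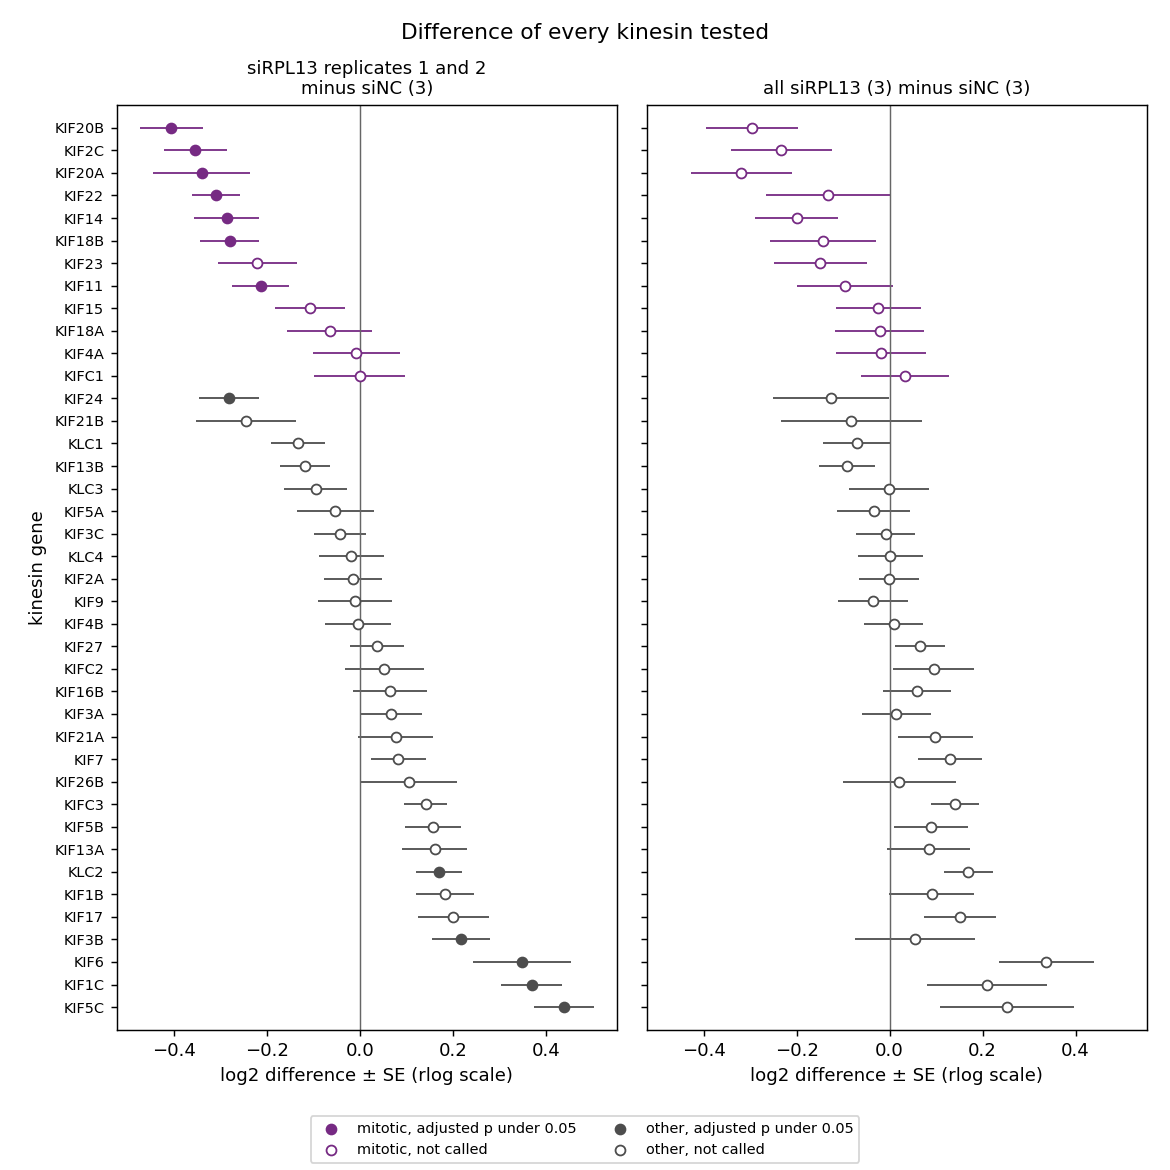
Log2 difference ± SE (limma) for the 40 kinesins tested, mitotic kinesins in purple and other members in grey, filled where the adjusted p is under 0.05; the left panel sets siRPL13 replicates 1 and 2 against 3 siNC libraries and the right panel uses all 6 libraries. Filled points number 7 mitotic and 6 other on the left and 0 on the right, where KIF20A has the most negative value (-0.32) and KIF6 the most positive (0.34).

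Of 5 motors of the central spindle and cytokinesis, 3 fell, where 10.7% of all genes were lower. KIF20B (MPP1, which acts late in cytokinesis) stood at 8.35, 8.35 and 8.68 rlog in siRPL13 replicates 1 to 3, against 8.78, 8.70 and 8.79 in siNC. All 3 siRPL13 libraries lay below all siNC libraries, the library labelled siRPL13 replicate 3 by the smallest margin. KIF20B fell by 0.41 ± 0.07 (SE, log2; adjusted p 0.00338, limma), to 75.5% of siNC (the antilog of the difference); over all 6 libraries its difference was -0.30 ± 0.10 (adjusted p 0.589, limma). KIF20A (MKLP2, which brings the chromosomal passenger complex to the central spindle) stood at 10.97, 11.16 and 11.13 rlog in siRPL13 replicates 1 to 3, against 11.63, 11.19 and 11.39 in siNC. Its siRPL13 libraries again lay all below its siNC libraries, although siNC replicate 2 came close to siRPL13 replicate 2. KIF20A fell by 0.34 ± 0.10 (adjusted p 0.0434, limma), a call lost with no filter, with quantile scaling and with either other variance model (adjusted p up to 0.124), and without any 1 of siRPL13 replicates 1 and 2 and siNC replicates 1 and 3 (0.0505 to 0.354). Its difference over all 6 libraries was -0.32 ± 0.11 (adjusted p 0.589). These were the only 2 of the 40 members tested with all 3 siRPL13 libraries below siNC, where 6.9% of all genes were so placed. KIF14, which recruits citron kinase to the midbody, stood at 8.74, 8.75 and 9.01 rlog in siRPL13 against 8.98, 9.12 and 8.998 in siNC. KIF14 fell by 0.29 ± 0.07 (adjusted p 0.0172, limma), a call lost when siRPL13 replicate 1 or replicate 2 was left out. Over all 6 libraries its difference was -0.20 ± 0.09 (adjusted p 0.589, limma). The library labelled siRPL13 replicate 3 lay inside its siNC range. KIF23 (MKLP1, the motor of centralspindlin) did not pass: it stood at 10.85, 11.02 and 11.15 rlog in siRPL13 against 11.31, 10.997 and 11.17 in siNC. The difference was -0.22 ± 0.08 (adjusted p 0.0916, limma; 0.0333 with library weights). With the replicate block, in which siNC replicate 3 adds nothing to the difference, the adjusted p was 0.0278 (limma). Over all 6 libraries the KIF23 difference was -0.15 ± 0.10 (adjusted p 0.648, limma). Its siNC replicate 2 lay below siRPL13 replicate 2, so the groups overlapped even without replicate 3. KIF4A, the chromokinesin that limits the overlap of central spindle microtubules, showed no ordered difference: 11.61, 11.70 and 11.62 rlog in siRPL13 lay inside the siNC values of 11.88, 11.47 and 11.64, and its difference was -0.01 ± 0.09 (adjusted p 0.962, limma; positive under quantile scaling and median centring), and -0.0193 ± 0.10 over all 6 libraries. Its near copy KIF4B shares 606 of its 50-base runs with KIF4A, so the reads of both may be split or lost between them; the difference of KIF4B was -0.0039 ± 0.07, and 0.0088 ± 0.06 over all 6 libraries.

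Of 4 motors that act on chromosomes and on kinetochore or astral microtubules, 3 fell, where 10.7% of all genes were lower. KIF2C (MCAK, a depolymerase at centromeres) stood at 11.67, 11.79 and 12.09 rlog in siRPL13 against 12.20, 11.99 and 12.06 in siNC. Replicates 1 and 2 of siRPL13 were below all siNC libraries, and the library labelled siRPL13 replicate 3 was among them. KIF2C fell by 0.35 ± 0.07 (adjusted p 0.00575, limma), and its difference over all 6 libraries was -0.23 ± 0.11 (adjusted p 0.589). KIF22 (KID, a chromokinesin of the polar ejection force) stood at 10.94, 11.03 and 11.52 rlog in siRPL13 against 11.27, 11.29 and 11.33 in siNC. Here the library labelled siRPL13 replicate 3 was the highest of the 6. KIF22 fell by 0.31 ± 0.05 (adjusted p 0.00338, limma) without that library, and over all 6 libraries its difference was -0.13 ± 0.13 (adjusted p 0.747). KIF18B, a plus-end motor that works with KIF2C on astral microtubules, had the same arrangement, at 10.78, 10.95 and 11.27 rlog in siRPL13 against 11.21, 11.12 and 11.09 in siNC, and fell by 0.28 ± 0.06 (adjusted p 0.0124, limma), against a difference of -0.14 ± 0.11 over all 6 libraries (adjusted p 0.686). Its relative KIF18A, which damps chromosome oscillations, did not pass: 8.66, 8.76 and 8.84 rlog in siRPL13 overlapped 8.59, 8.82 and 8.90 in siNC, and the difference was -0.06 ± 0.09 (adjusted p 0.661, limma) and -0.021 ± 0.10 over all 6 libraries (adjusted p 0.953). Whether KIF18A and KIF18B differ from each other in response was not tested.

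Of KIF11, KIF15 and KIFC1, which make the spindle bipolar or focus its poles, 1 fell, where 10.7% of all genes were lower. KIF11 (Eg5), which slides antiparallel microtubules apart, stood at 11.15, 11.34 and 11.60 rlog in siRPL13 against 11.45, 11.44 and 11.49 in siNC. Replicates 1 and 2 of siRPL13 were the lowest of the 6 libraries and the library labelled siRPL13 replicate 3 the highest. KIF11 fell by 0.21 ± 0.06 (adjusted p 0.0344, limma). The call was lost with no filter, with quantile scaling and without a variance trend (adjusted p up to 0.0712, limma). Leaving out siNC replicate 3 (0.0863) or siRPL13 replicate 1 also lost it. Over all 6 libraries the KIF11 difference was -0.10 ± 0.10 (adjusted p 0.762, limma). KIF15, which can stand in for KIF11, stood at 8.22, 8.38 and 8.55 rlog in siRPL13 against 8.37, 8.45 and 8.40 in siNC, with a difference of -0.11 ± 0.08 (adjusted p 0.35, limma) and of -0.0244 ± 0.09 over all 6 libraries (adjusted p 0.941). Its siRPL13 libraries took both the lowest and the highest place. KIFC1 (HSET), the minus-end motor that focuses spindle poles, stood at 5.73, 5.40 and 5.66 rlog in siRPL13 against 5.68, 5.52 and 5.50 in siNC. Its difference was 0.00 ± 0.10 (adjusted p 1.00, limma), and negative under quantile scaling; over all 6 libraries it was 0.0332 ± 0.10 (adjusted p 0.92).

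Across the 12 mitotic kinesins siRPL13 replicates 1 and 2 had the lowest medians. The median deviation from the siNC mean was -0.31, -0.18 and 0.04 in siRPL13 replicates 1 to 3, against 0.04, -0.03 and -0.01 in siNC replicates 1 to 3. Replicate 1 of siRPL13 was the lowest of the 6 libraries for 8 of 12 members and replicate 2 for 2. The library labelled siRPL13 replicate 3 was the lowest for 0 and the highest for 4, and it lay above the siNC range for 4 members (KIF22, KIF15, KIF11 and KIF18B), within it for 6 and below it for 2, where 29.4%, 42.7% and 27.9% of all genes lay. The members' spread within siRPL13 had a median SD of 0.17 (n = 3) against 0.09 within siNC.

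**Figure D3:**
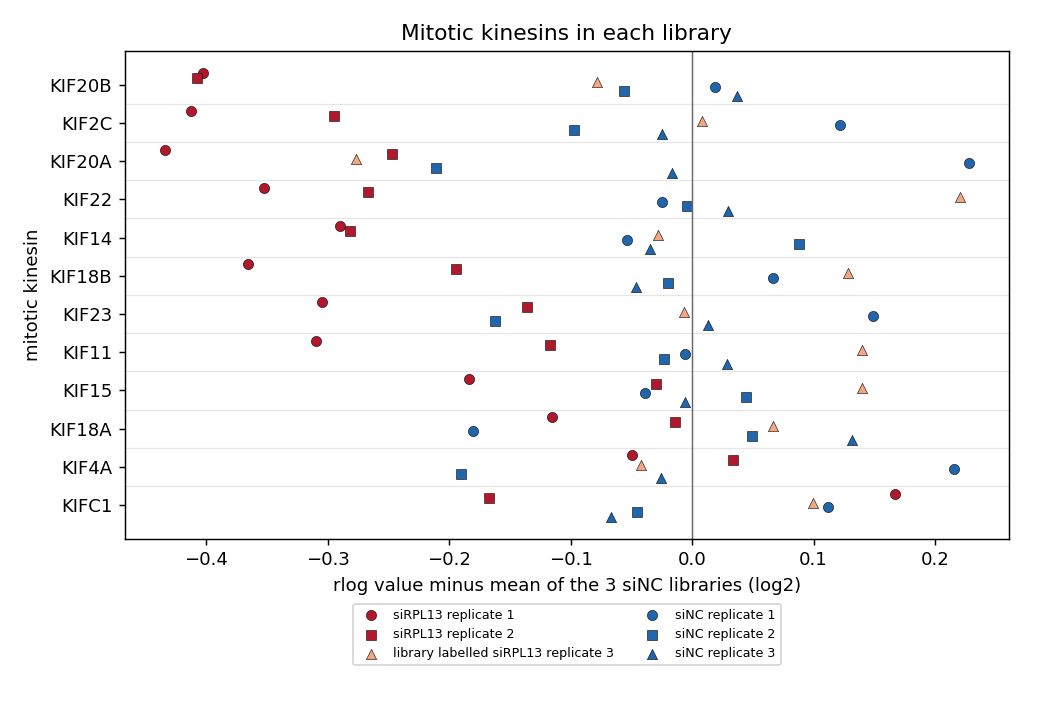
Deviation of each rlog value from its siNC average (3 libraries; horizontal axis, log2) for the 12 mitotic kinesins, one point per library, siRPL13 in red (the library labelled siRPL13 replicate 3 in pale orange) and siNC in blue, the shape giving the replicate number. For KIF22 the siRPL13 points lie on both sides of siNC, at 10.94 and 11.03 rlog for replicates 1 and 2 and 11.52 for the library labelled siRPL13 replicate 3.

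Partners of these motors in the spindle and midzone included many that fell. In a list of 25 spindle and cytokinesis genes, chosen with earlier results of these data known, 14 fell and 0 rose, where 10.7% of all genes were lower and 8.42% higher, with a median difference of -0.27 (log2; -0.15 over all 6 libraries). Cyclin B1 (CCNB1) stood at 12.32, 12.44 and 12.75 rlog in siRPL13 against 12.92, 12.71 and 12.86 in siNC and fell by 0.45 ± 0.07 (adjusted p 0.00186, limma). The passenger complex subunits BIRC5 (survivin) and CDCA8 (borealin) fell by 0.44 ± 0.07 and 0.38 ± 0.07 (adjusted p 0.00268 and 0.00480, limma). CENPE, a kinetochore kinesin whose symbol lies outside the rule, fell by 0.34 ± 0.09 and PRC1, the microtubule crosslinker that KIF4A binds, by 0.32 ± 0.06 (adjusted p 0.0232 and 0.00665, limma); these 2 were picked after their values had been seen. The list medians by library were -0.34, -0.19 and -0.02 in siRPL13 replicates 1 to 3, against 0.10, -0.11 and 0.02 in siNC. Over all 6 libraries 0 of the 25 passed (limma; 5 at an unadjusted p under 0.05, where 8.32% of all genes were). There the differences were -0.32 ± 0.11 for CCNB1, -0.30 ± 0.12 for BIRC5, -0.24 ± 0.12 for CDCA8, -0.29 ± 0.09 for CENPE and -0.24 ± 0.09 for PRC1 (adjusted p 0.589 to 0.598, limma). The part of a general change in cycling genes in the result for the kinesins was not tested.

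**Figure D4:**
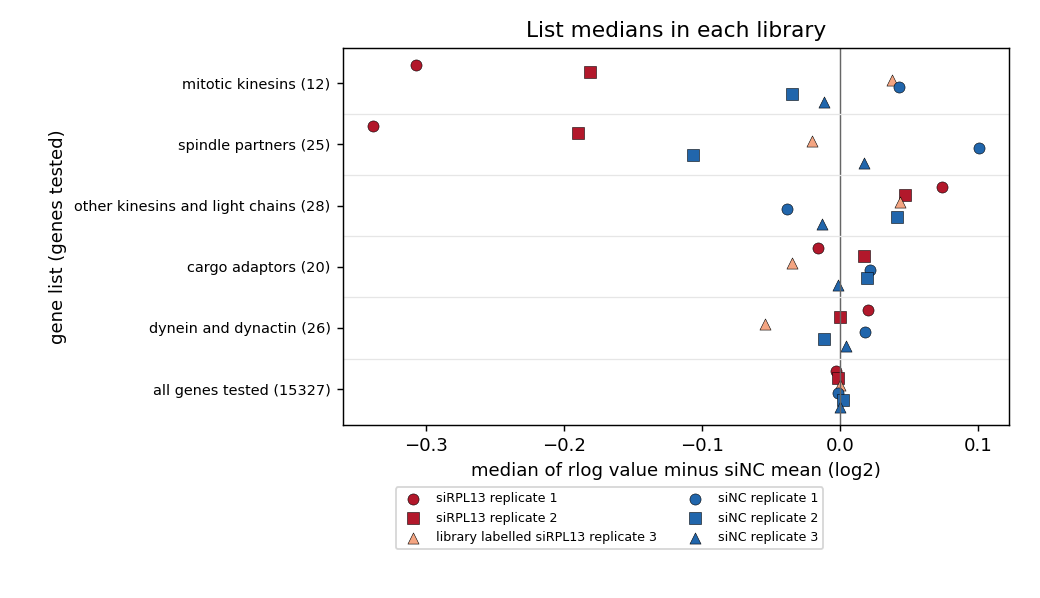
Median over the genes of each list of the rlog value minus the siNC mean (horizontal axis, log2), one point per library, siRPL13 in red (the library labelled siRPL13 replicate 3 in pale orange) and siNC in blue. Mitotic kinesins and spindle partners lie at -0.31 and -0.34 in siRPL13 replicate 1, whereas the other kinesins lie at 0.07 and all genes tested at 0.00.

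Of the 7 kinesin-1 chains 2 rose and 0 fell, where 8.42% of all genes were higher and 10.7% lower. KIF5C, a heavy chain enriched in neurons, stood at 9.94, 9.82 and 9.32 rlog in siRPL13 replicates 1 to 3, against 9.44, 9.39 and 9.49 in siNC. Replicates 1 and 2 of siRPL13 were above every siNC library and the library labelled siRPL13 replicate 3 below every one. KIF5C rose by 0.44 ± 0.06 (adjusted p 0.00176, limma), to 136% of siNC, the largest rise among the 28 other members tested; over all 6 libraries its difference was 0.25 ± 0.14 (adjusted p 0.613). KIF5B, the heavy chain of most tissues, stood at 12.04, 12.11 and 11.87 rlog in siRPL13 against 11.83, 11.91 and 12.02 in siNC, a difference of 0.16 ± 0.06 that did not pass (adjusted p 0.0954, limma; 0.09 ± 0.08 over all 6 libraries). KIF5A, the third heavy chain, lay at 7.23, 7.34 and 7.34 rlog in siRPL13 within the siNC values of 7.30, 7.44 and 7.28 but for its replicate 1, with a difference of -0.05 ± 0.08 (-0.0338 ± 0.08 over all 6 libraries). The light chain KLC2, which links the motor to cargo, stood at 11.57, 11.54 and 11.55 rlog in siRPL13 against 11.34, 11.41 and 11.40 in siNC, so that all 3 siRPL13 libraries lay above all 3 siNC libraries. KLC2 rose by 0.17 ± 0.05 (adjusted p 0.0354, limma), and its difference over all 6 libraries was the same, 0.17 ± 0.05, with an adjusted p of 0.589. The KLC2 call was lost with no filter, without a variance trend and with the replicate number as a block (adjusted p up to 0.0734, limma). Leaving out siNC replicate 3 (0.0655), siRPL13 replicate 1 or siRPL13 replicate 2 also lost it. Of the 50-base runs of KLC2, 8.7% also occur in other annotated transcripts. KLC1, KLC3 and KLC4 did not pass, with differences of -0.13 ± 0.06, -0.10 ± 0.07 and -0.02 ± 0.07, and over all 6 libraries of -0.07 ± 0.07, -0.0014 ± 0.09 and 0.0014 ± 0.07; 45.0% of the 50-base runs of the longest KLC1 transcript also lie in other annotated genes, mainly XRCC3, so its value is uncertain.

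Among the other plus-end transport motors, KIF1C and KIF3B rose, where 8.42% of all genes were higher. Of the 28 members outside the mitotic set, 21.4% passed in either direction, near the 19.1% of all genes. KIF1C, which carries vesicles and messenger RNA, stood at 13.45, 13.38 and 12.94 rlog in siRPL13 against 12.98, 12.97 and 13.18 in siNC and rose by 0.37 ± 0.07 (adjusted p 0.00412, limma), to 129% of siNC. The library labelled siRPL13 replicate 3 was the lowest of the 6 for KIF1C, and the difference with it included was 0.21 ± 0.13 (adjusted p 0.632). KIF3B, which pairs with KIF3A in the motor of ciliary transport, stood at 11.93, 11.91 and 11.44 rlog in siRPL13 against 11.81, 11.60 and 11.71 in siNC. KIF3B rose by 0.22 ± 0.06 (adjusted p 0.0321, limma; 0.0573 without a variance trend). The call was also lost without any 1 of siRPL13 replicates 1 and 2 and siNC replicates 2 and 3. Over all 6 libraries the KIF3B difference was 0.05 ± 0.13 (adjusted p 0.898, limma). Its partners KIF3A and KIFAP3, the accessory subunit, did not pass, with differences of 0.07 ± 0.07 and 0.08 ± 0.09 (0.0141 ± 0.07 and -0.0039 ± 0.10 over all 6 libraries). KIF17, a ciliary and dendritic motor, and KIF1B, which carries mitochondria and synaptic vesicle precursors, had differences of 0.20 ± 0.08 (adjusted p 0.0900, limma) and 0.18 ± 0.06 (adjusted p 0.0639, limma). KIF13A, a motor of endosomal transport, had a difference of 0.16 ± 0.07 (adjusted p 0.129, limma). Over all 6 libraries the differences were 0.15 ± 0.08 for KIF17, 0.09 ± 0.09 for KIF1B and 0.08 ± 0.09 for KIF13A (adjusted p 0.596 to 0.76, limma).

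The remaining calls were KIF6 and KIF24, where 8.42% of all genes were higher and 10.7% lower. KIF6, known from mouse as a motor of ependymal cilia, stood at 7.83, 7.71 and 7.73 rlog in siRPL13 against 7.29, 7.64 and 7.33 in siNC, with all siRPL13 libraries above all siNC libraries. KIF6 rose by 0.35 ± 0.11 (adjusted p 0.0403, limma) and differed by 0.34 ± 0.10 over all 6 libraries (adjusted p 0.589, limma). The call was lost without any 1 of siRPL13 replicates 1 and 2 and siNC replicates 1 and 3. For KIF6, siNC replicate 2 was near the siRPL13 values. KIF24, a depolymerase at the mother centriole that restrains cilium formation, was the 1 other member that fell. It stood at 9.41, 9.51 and 9.92 rlog in siRPL13 against 9.81, 9.70 and 9.70 in siNC. The library labelled siRPL13 replicate 3 was the highest of the 6. KIF24 fell by 0.28 ± 0.07 (adjusted p 0.0138, limma), a call lost when siRPL13 replicate 1 or replicate 2 was left out. Over all 6 libraries its difference was -0.13 ± 0.12 (adjusted p 0.743, limma). Like the promoter windows of KIF4B and KIF5B, which did not pass, that of KIF24 holds both a CHR and CCAAT boxes. KIF2A, the depolymerase of the same kinesin-13 family, differed by -0.01 ± 0.06 (-0.0014 ± 0.06 over all 6 libraries). KIF21B, which limits microtubule growth, had a difference of -0.24 ± 0.11 (adjusted p 0.137, limma) with 7.36, 7.39 and 7.86 rlog in siRPL13 against 7.41, 7.82 and 7.63 in siNC; over all 6 libraries it was -0.08 ± 0.15 (adjusted p 0.865).

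**Figure D5:**
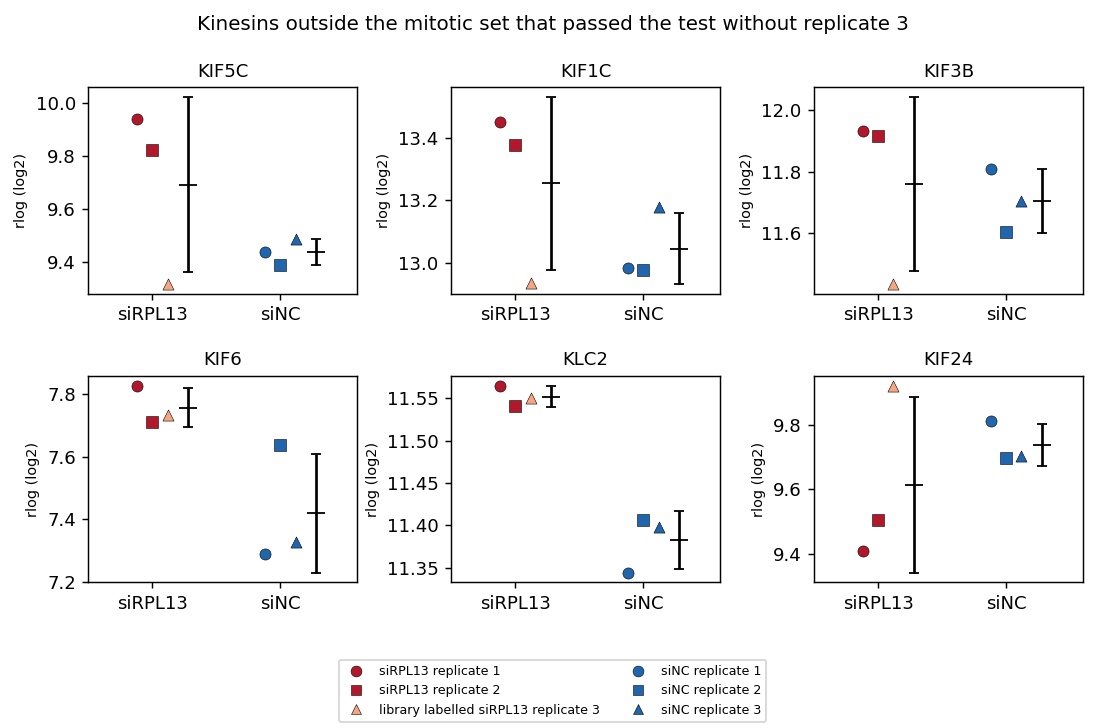
rlog values (log2, axes not starting at 0) of the 6 kinesins outside the mitotic set that passed without the library labelled siRPL13 replicate 3, one point per library, siRPL13 left and siNC right, with the mean of 3 libraries ± SD beside each group. For KIF5C, KIF1C and KIF3B that library lies below every siNC library and for KIF24 above them, whereas for KIF6 and KLC2 all 3 siRPL13 libraries lie above siNC.

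With all 6 libraries, 4 of the 40 members tested had every siRPL13 library above every siNC library, against 6.92% of all genes: KIF6 and KLC2, and, picked after their values had been seen, KIFC3 and KIF7. KIFC3, a minus-end motor of cell junctions, stood at 12.47, 12.44 and 12.45 rlog in siRPL13 against 12.34, 12.30 and 12.30 in siNC, a difference of 0.14 ± 0.05 (adjusted p 0.589, limma; 0.0562 without the library labelled siRPL13 replicate 3). KIF7, a regulator of Hedgehog signalling at the cilium tip, stood at 10.05, 10.03 and 10.18 rlog in siRPL13 against 9.91, 10.03 and 9.92 in siNC, so that its groups touch; its difference was 0.13 ± 0.07 over all 6 libraries (adjusted p 0.6, limma) and 0.08 ± 0.06 without that library (adjusted p 0.359). The remaining 11 members tested, KIF2A, KIF3A and KIF4B among them, had differences between -0.12 and 0.11, and between -0.09 and 0.10 over all 6 libraries, none past the threshold. KIF12 and KIF25, with mean rlog values of 0.42 and 0.60, were below the filter and were not tested.

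Genes that work with the transport motors were listed in the same way. Of 20 cargo adaptors and kinesin-binding proteins measured 4 rose and 3 fell, where 8.42% of all genes were higher and 10.7% lower, with a median difference of -0.01 (log2). KIDINS220, a scaffold carried by kinesin-1, rose by 0.46 ± 0.06, with 11.86, 11.85 and 11.39 rlog in siRPL13 against 11.46, 11.40 and 11.31 in siNC (adjusted p 0.000775, limma). GRIP1, an adaptor of KIF5 for glutamate receptors, rose by 0.37 ± 0.08 (adjusted p 0.0104, limma). Of 26 genes of dynein, dynactin and their adaptors, the machinery of transport in the opposite direction, 0 rose and 2 fell, where 19.1% of all genes changed. These were NDE1, a dynein regulator that also acts in mitosis (by 0.37 ± 0.06, adjusted p 0.00252, limma), and the dynactin subunit DCTN2 (by 0.19 ± 0.05, adjusted p 0.0203, limma). Over all 6 libraries 0 genes of either list passed (limma; 2 of each at an unadjusted p under 0.05, as were 8.32% of all genes). There the differences were 0.31 ± 0.12 for KIDINS220, 0.21 ± 0.13 for GRIP1, -0.23 ± 0.11 for NDE1 and -0.15 ± 0.06 for DCTN2 (adjusted p 0.589 to 0.638, limma).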

How the data were processed

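The deposited table holds, for 21429 Ensembl genes in 6 libraries, values that the authors named rlog expression, on a log2 scale; it holds no counts, so no count model was used. Per the submitters' processing notes the tools were DESeq2, HTSeq 0.6.1p1, TopHat and Trimmomatic 0.33 with build GRCh38.p7; their roles, settings and the strandedness are not stated there. Regularization pulls a value towards the gene's mean, more so for low genes, which understates their differences.

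Symbols came from a table of current gene names (20499 identifiers) and GENCODE 29 (20608), alike for all 42 members. Tests used limma 3.58.1 in R 4.3.3 (eBayes with a trend, two-sided) on the 15327 genes whose mean rlog was 3 or more, adjusted over all of them by Benjamini and Hochberg with a threshold of 0.05. Each test was run on 6 libraries and on 5, without the library labelled siRPL13 replicate 3. It was also run on simulated data with the same spread for every gene and the same shift in every siRPL13 library. That setting is simpler than these data, where replicate 3 stood apart and spread differed by gene. Alternatives changed the filter (none, or 5 or more), the scaling (quantile, median centring), the variance model (no trend, robust trend), library weights, a block for the replicate number, and the libraries left out. Shared sequence is the share of 50-base runs of a member's longest coding transcript that also occur, on either strand, in GENCODE 29 transcripts of other genes.

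Named members were the mitotic kinesins, the kinesin-1 chains, every other member past the threshold on 5 libraries and the 4 next by size; from each companion list, up to 3 past the threshold. The result of 1 such gene is not reported here. KIF2A, KIF3A, KIF4B and KIFAP3 were added for their ties to named members. Members, lists and the 5-library comparison were chosen with earlier results of these data known. Figures were drawn with matplotlib 3.10.9.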

Additional observations from a re-analysis of the deposited data

How the results depend on the processing

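With all 6 libraries no kinesin passed in the settings tried, except with library weights, whose estimation stopped before converging and which called 5309 genes and 18 kinesins, and when the library labelled siRPL13 replicate 3 was left out; leaving out single libraries gave 0 to 2933 genes and 0 to 13 kinesins. The median difference of the mitotic kinesins (log2) then ranged from -0.25 to -0.0334. Without that library, leaving out each of the other 5 gave 243 to 3748 genes, 0 to 8 mitotic kinesins lower, 0 to 9 other members called and medians of -0.31 to -0.18; library weights called 10 other members. Same-numbered libraries had correlations of deviations of 0.084, -0.428 and -0.328, against -0.38 to 0.454 for the other pairs. These values cannot show whether the numbers pair samples, as each group has 3 libraries and replicate 3 of siRPL13 stood apart in RPL13. With the replicate number as a block, 0 genes passed on 6 libraries, and on 5 libraries 3043 genes, 8 mitotic kinesins lower and 7 other members. On 5 libraries that block fits siNC replicate 3 exactly, so this library adds nothing to the differences. Little is then left to measure the spread, which limits those calls. Some differences changed sign, none of them in a comparison where the gene was called. With all 6 libraries these were KIFC1 (-0.0952 with library weights), KIF4A (0.0029 with quantile scaling, 0.0466 with library weights), KIF5A (0.0046 with library weights), KLC3 (0.0040 with median centring) and KLC4 (-0.0701 with library weights). Leaving out single libraries of the 6 gave -0.11 to 0.0552 for KIF15, -0.0339 to 0.13 for KIFC1, -0.11 to 0.0886 for KIF4A, -0.21 to 0.011 for KIF11, -0.11 to 0.0447 for KIF18A, -0.24 to 0.018 for KIF21B, -0.0307 to 0.22 for KIF3B, -0.0657 to 0.017 for KIF5A, -0.0951 to 0.0476 for KLC3 and -0.0273 to 0.0406 for KLC4. On 5 libraries the reversed differences were KIFC1 (-0.0084 with quantile scaling, -0.0332 with the replicate block), KIF4A (0.0294 with quantile scaling, 0.00057 with median centring, 0.0140 with library weights) and KIF18A (0.00077 with the replicate block). Leaving out single libraries of the 5 gave -0.167 to 0.167 for KIFC1, -0.103 to 0.0998 for KIF4A, -0.155 to 0.000775 for KIF18A, -0.11 to 0.00413 for KIF5A and -0.077 to 0.0408 for KLC4. The cause was not tested. Over single genes, 321 of the values under other settings on 6 libraries kept their direction and side of the threshold, 30 newly passed and 27 reversed; on 5 libraries the numbers were 285, 13 and 15, and 38 no longer passed. Read depth is unknown, so no counting error can be given, and 2 siRPL13 libraries limit the precision of the 5-library comparison.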
